A study of Arabidopsis thaliana with 4 samples.

Results

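Transcripts of RNA polymerase V (Pol V) ended at different positions in the rrp6L1-1 mutant and in wild-type Arabidopsis thaliana at most of the 7 loci read, and at IGN29 they ended at nearly the same ones. The comparison sets the rrp6L1-1 library against the Col-0 library, 2 of the 4 libraries of the series, at every locus named in the deposited tables. The libraries were chosen by genotype label, and after removal of repeated lines they held 109895 ends in rrp6L1-1 and 141489 in Col-0. Col-0 was the wild type, and rrp6L1-1 is a mutant in the Col-0 ecotype of RRP6L1; the kind of mutation is not given in the sources used here. Both came from above-ground tissue of plants aged 2.5 weeks, grown in soil with 16 hours of light and 8 hours of dark. A library from nrpe1-11, a Pol V mutant of the same ecotype and age, served as the background without Pol V. With 1 library per genotype there is no replicate error and no test, and every difference below is one between 2 libraries. The tables read neither RRP6L1 RNA nor any tissue marker, so neither the mutation nor the tissue was checked against the data.

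Pol V is a plant-specific RNA polymerase whose noncoding transcripts stay near the DNA they were copied from and help to recruit small-RNA-loaded Argonaute proteins and DNA methylation. RRP6L1 is a plant relative of RRP6, which in yeast is a 3′-to-5′ exonuclease of the nuclear exosome, a complex that trims and degrades RNA from its 3′ end. The design addressed where Pol V transcripts end in mutants of this relative. The assay was 3′ RACE (rapid amplification of cDNA ends). RNA was given a poly(A) tail, reverse transcribed from oligo(dT) and amplified by nested PCR with locus primers. Each read records where 1 PCR product ends, and several reads can come from 1 RNA molecule.

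All 7 loci lie between annotated genes of TAIR10.1, counting from length 1 to the farthest frequent end. IGN5b (chr4:2323304-2323395, plus strand) and IGN5t (chr4:2323065-2323136, minus strand) run apart from each other, and their nearest gene is AT4G04905, 994 and 755 nt away. IGN17 (chr1:13585662-13585765, plus strand) lies 4666 nt from the pseudogene AT1G36200. The start of IGN23 (chr4:2577995-2578091, plus strand) is 21 nt from AT4G05030. IGN25 (chr4:5459179-5459318, plus strand) lies 2080 nt from AT4G08580. IGN29 (chr2:15314845-15314900, plus strand) starts 38 nt from DML1, also called ROS1, which encodes a DNA demethylase. IGN35 (chr4:6549083-6549186, plus strand) starts 205 nt from AT4G10600.

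The reference sequences below show where the frequent ends lie, because the same letters carry different ends in the 2 genotypes. Each runs 5′ to 3′ along the transcript from length 1 to 5 nt past the farthest frequent end of either library. Capitals mark every base at which at least 5% of the ends of that locus lay in the named library.
IGN5b, Col-0: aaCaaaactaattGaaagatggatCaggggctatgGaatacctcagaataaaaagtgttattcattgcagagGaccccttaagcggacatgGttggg
IGN5b, rrp6L1-1: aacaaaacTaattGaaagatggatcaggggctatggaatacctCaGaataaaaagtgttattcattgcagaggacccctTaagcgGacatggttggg
IGN5t, Col-0: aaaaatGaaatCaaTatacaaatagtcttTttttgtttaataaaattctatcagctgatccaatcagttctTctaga
IGN5t, rrp6L1-1: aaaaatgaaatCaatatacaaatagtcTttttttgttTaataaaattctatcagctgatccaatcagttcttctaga
IGN17, Col-0: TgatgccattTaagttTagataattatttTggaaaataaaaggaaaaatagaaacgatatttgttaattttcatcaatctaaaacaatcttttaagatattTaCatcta
IGN17, rrp6L1-1: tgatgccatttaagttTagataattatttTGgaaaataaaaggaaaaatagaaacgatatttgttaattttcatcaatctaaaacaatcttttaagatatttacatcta
IGN23, Col-0: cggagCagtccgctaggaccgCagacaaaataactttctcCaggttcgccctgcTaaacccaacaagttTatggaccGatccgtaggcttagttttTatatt
IGN23, rrp6L1-1: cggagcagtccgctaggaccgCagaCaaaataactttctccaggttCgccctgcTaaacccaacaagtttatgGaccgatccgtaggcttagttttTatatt
IGN25, Col-0: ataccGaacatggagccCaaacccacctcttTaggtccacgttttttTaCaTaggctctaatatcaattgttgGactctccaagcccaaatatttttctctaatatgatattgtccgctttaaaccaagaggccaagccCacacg
IGN25, rrp6L1-1: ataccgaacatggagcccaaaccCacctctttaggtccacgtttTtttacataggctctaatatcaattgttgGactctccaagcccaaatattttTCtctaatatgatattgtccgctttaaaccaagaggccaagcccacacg
IGN29, Col-0: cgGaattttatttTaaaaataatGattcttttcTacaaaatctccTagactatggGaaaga
IGN29, rrp6L1-1: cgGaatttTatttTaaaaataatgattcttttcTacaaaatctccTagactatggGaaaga
IGN35, Col-0: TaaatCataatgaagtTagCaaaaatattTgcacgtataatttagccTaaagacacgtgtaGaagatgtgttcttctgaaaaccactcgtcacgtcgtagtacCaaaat
IGN35, rrp6L1-1: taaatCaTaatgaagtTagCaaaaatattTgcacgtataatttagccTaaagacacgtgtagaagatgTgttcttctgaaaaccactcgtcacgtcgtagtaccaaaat

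A position holding at least 5% of the ends of its locus in a library is called major. It is called gained when it is major in rrp6L1-1 with at least 5 times its Col-0 share, lost in the opposite case, and kept otherwise. Col-0 had 46 major positions over the 7 loci and rrp6L1-1 had 36, with 18 major in both, 64 in all. Of the 64, 12 were gained (18.8%), 20 were lost (31.3%) and 32 were kept. Among the 161 positions with at least 1% of the ends in either library, 27.3% were at least 5-fold higher in rrp6L1-1 and 21.7% at least 5-fold lower. The 64 major positions are among these 161. Of the positions that were not major, 32 were at least 5-fold higher in rrp6L1-1 and 15 at least 5-fold lower. Differences of 5-fold were therefore not particular to major ends. Higher shares outnumbered lower ones among the less frequent ends, and the reverse held among the major ones. IGN5b, IGN17 and IGN25 held 9 of the 12 gained and 15 of the 20 lost positions, and the other 4 loci held 3 and 5. Each of IGN5b, IGN17 and IGN25 had 2 of the 32 kept positions, and they had 19, 14 and 22 of the 161. Gained positions occurred at 5 loci and lost ones at 6, and IGN29 had neither. With the shares of the other library summed within 2 nt, 9 gained and 15 lost calls remained. The gained calls at IGN17 (31 nt), IGN25 (97 nt) and IGN5t (28 nt) then failed the 5-fold limit. So did the lost calls at IGN25 (6 nt), IGN5t (30 nt), IGN23 (70 and 78 nt) and IGN35 (62 nt). Of the kept positions, 21 of 32 had shares within 2-fold of each other and 14 were higher in rrp6L1-1. The fold limit fell in a gap: the kept positions nearest to it differed 3.71-fold (IGN23, 47 nt) and 3.72-fold (IGN25, 32 nt), and the called ones 5.64-fold (IGN23, 70 nt) and 8.55-fold (IGN25, 18 nt).

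**Figure D1:**
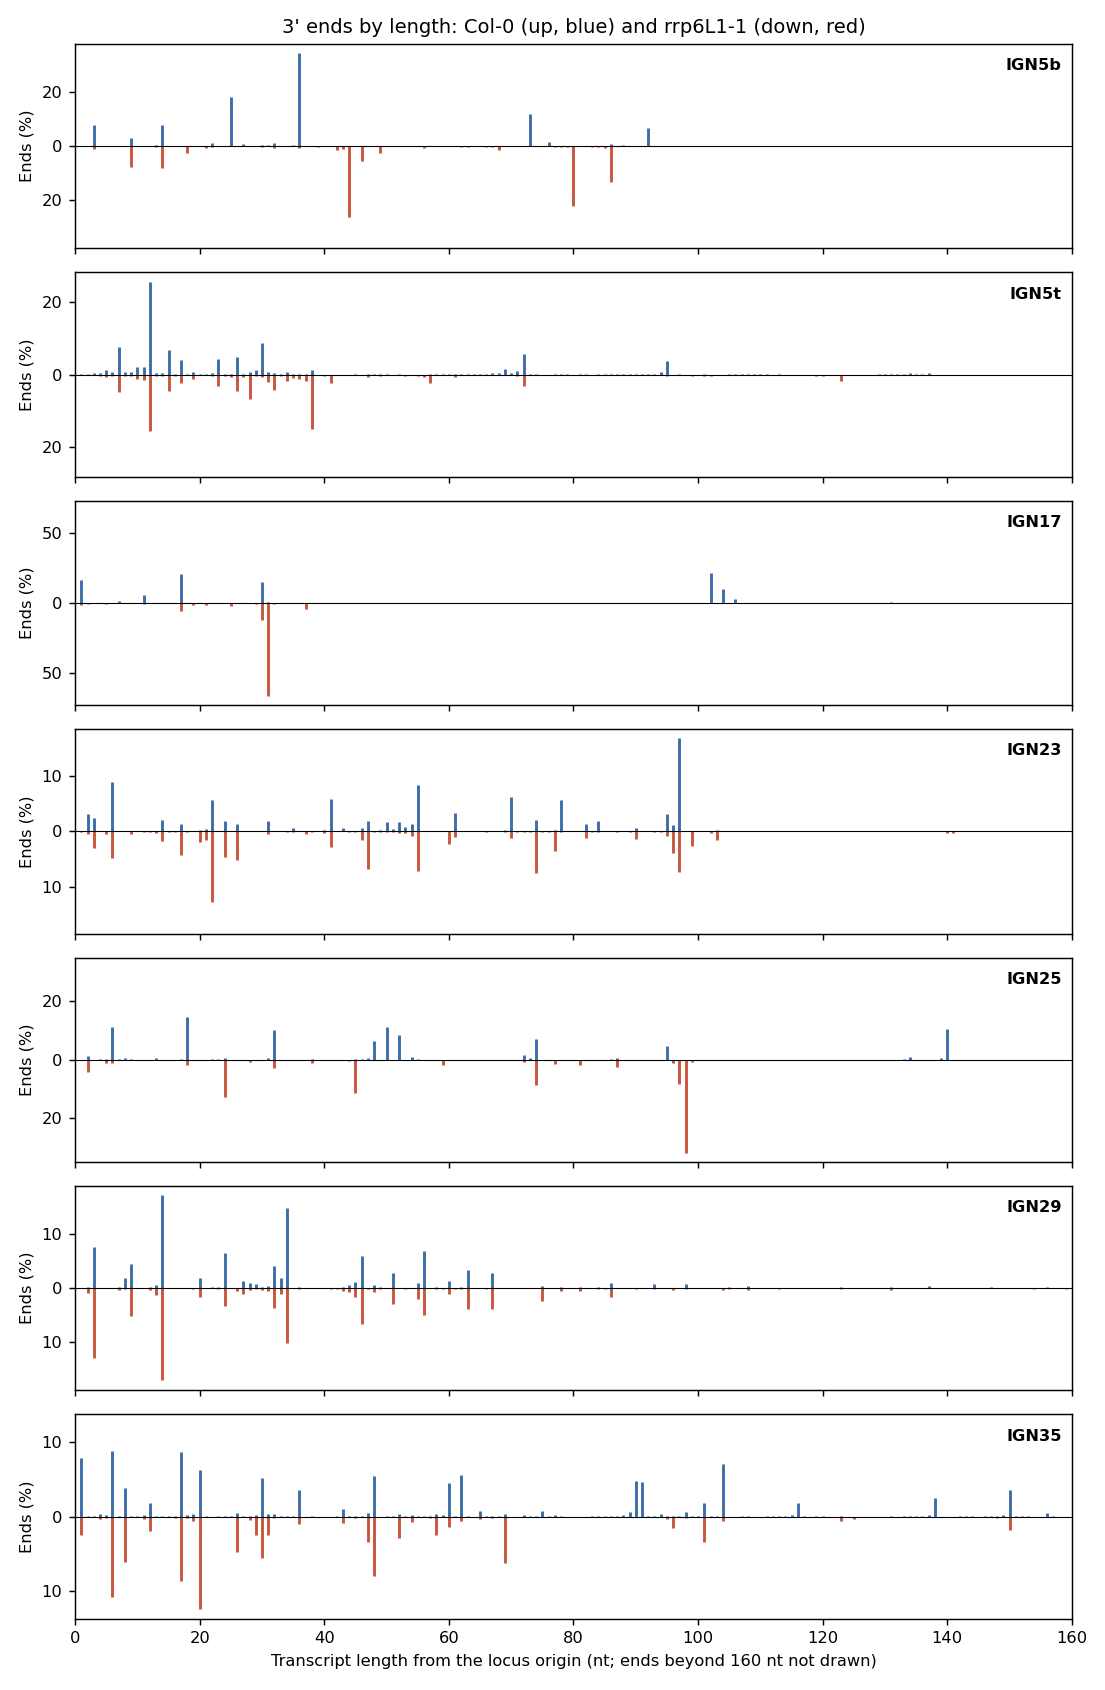
Share of the ends of each locus (vertical axis, percent) by transcript length (horizontal axis, nt) in Col-0, drawn upward in blue, and rrp6L1-1, drawn downward in red, 1 library each. Ends beyond 160 nt, at most 1.16% of a locus, are not drawn. At IGN29 the bars mirror each other, and at IGN5b, IGN17 and IGN25 the tallest bars of the libraries stand at different lengths.

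IGN17 had several frequent ends in Col-0 and a single dominant one in rrp6L1-1. The 31 nt end held 0.862% in Col-0 (238 of 27611 ends) and 66.8% in rrp6L1-1 (6217 of 9307; exact 95% interval 65.8% to 67.8%). This is the first G of the TTTTGG stretch in the IGN17 sequence, 1 nt past a Col-0 major end at 30 nt, the last T. The 30 nt position was kept, at 15.3% in Col-0 and 11.9% in rrp6L1-1. Summed within 2 nt of 31 nt, the shares were 16.6% and 80.02%, so the libraries differed also when neighbouring bases were counted together.
Downstream, the Col-0 ends at 102 nt (21.4%) and 104 nt (10.2%) had 1 and 0 counterparts in rrp6L1-1, the latter at least 318-fold lower when 0 is put at a floor of 3 ends per library and locus. Ends beyond 80 nt made up 37.4% of Col-0 and 0.0430% of rrp6L1-1. Near the origin, 1 nt held 16.6% in Col-0 and 1.57% in rrp6L1-1, and 11 nt held 5.59% and 0.473%. The kept end at 17 nt held 21.1% and 5.96%. Short and long ends thus both held smaller shares in rrp6L1-1, and 89.0% of its ends lay from 21 to 50 nt, against 17.1% in Col-0. All shares of a locus are parts of the same total, so the large share at 31 nt in itself lowers the others.

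At IGN25, Col-0 had a group of frequent ends from 48 to 52 nt, and rrp6L1-1 had its own at 45 nt and at 97 and 98 nt. The end at 98 nt, the C after the TTTTT stretch, held 0.0704% in Col-0 (20 of 28398) and 31.9% in rrp6L1-1 (3392 of 10636; exact 95% interval 31.0% to 32.8%). The neighbouring 97 nt held 0.0563% and 8.27%. Close by, Col-0 itself had an end at 95 nt, below the limit for a major one, which held 4.76% against 0.169% in rrp6L1-1. Further gained ends stood at 24 nt (0.630% and 12.9%) and 45 nt (0.282% and 11.3%).
The lost ends lay on both sides of these. Ends at 48, 50 and 52 nt held 6.58%, 11.2% and 8.66% in Col-0 and 0.0470%, 0.0658% and 0% in rrp6L1-1, the last at least 307-fold lower. The 45 nt end and the lost 48 nt end lie in the same run of T. Ends at 140 nt held 10.5% and 0.0564%. Nearest the origin, 6 nt held 11.2% and 1.05%, and 18 nt held 14.8% and 1.73%. Of the kept ends, 74 nt was close in both libraries (7.09% and 8.59%), and 32 nt held 10.2% and 2.75%.

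At IGN5b the major end at 14 nt was alike in both libraries, and the major ends beyond 20 nt were not. The ends at 14 nt held 7.96% in Col-0 and 7.94% in rrp6L1-1, and those at 9 nt 3.13% and 7.67%. Ends of up to 20 nt together made up 19.9% and 19.7%, within the counting intervals of each other (19.4% to 20.4% and 19.1% to 20.3%). These like totals held opposite differences: in rrp6L1-1 the 3 nt end was lower, and the ends at 9 nt and 18 nt (0.222% and 2.59%) were higher. Beyond 20 nt, all 4 major Col-0 ends were lost and all 4 major rrp6L1-1 ends were gained. The lost ends were 25 nt (18.0% against 1 end of 17850), 36 nt (34.3% against 0.756%), 73 nt (12.1% against 0.0448%) and 92 nt (6.73% against 0, at least 401-fold lower). The remaining lost end, at 3 nt, held 7.73% and 0.874%. The gained ends were 44 nt (0.0634% and 25.9%), 46 nt (0.0181% and 5.54%), 80 nt (0.0317% and 21.9%) and 86 nt (0.756% and 13.3%). Lost and gained ends alternated in groups along the sequence, and each of the 4 gained ends lay 6 to 10 nt from the nearest major Col-0 end, so none was a neighbour within 2 nt.

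IGN5t, transcribed away from IGN5b on the other strand, kept 4 of its 7 major ends. Its leading end in both libraries was at 12 nt, with 25.5% in Col-0 and 15.4% in rrp6L1-1. The kept ends at 7, 15 and 72 nt were also lower in rrp6L1-1, by 1.64, 1.52 and 1.82 times. Ends at 38 nt held 1.16% and 14.8% (exact 95% interval 14.2% to 15.4%). The other gain and the single loss lay 2 nt apart in a run of T: 28 nt held 0.750% and 6.82%, and 30 nt held 8.72% and 0.753%. Summed within 2 nt of 30 nt, the shares were 11.8% and 14.2%, so the 28 and 30 nt calls did not hold once neighbours were added. Ends of 21 to 50 nt made up 25.6% in Col-0 and 49.1% in rrp6L1-1.

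IGN35 shared most of its short major ends and had fewer long ends in rrp6L1-1. The major ends at 6, 17 and 30 nt differed by at most 1.23-fold, at 8.81%, 8.67% and 5.13% in Col-0 and 10.8%, 8.58% and 5.56% in rrp6L1-1. Ends at 8 nt held 3.78% and 6.12%, those at 20 nt 6.16% and 12.4%, and those at 48 nt 5.49% and 7.94%. The first position, 1 nt, held 7.88% and 2.48%. Lost ends stood at 62 nt (5.51% and 0.629%) and 104 nt (7.02% and 0.649%), and the gained end at 69 nt (0.292% and 6.22%). Just under the limit for a major end, 90 and 91 nt held 4.80% and 4.62% in Col-0 and 0.0250% and 0.0549% in rrp6L1-1. In the other direction, the short end at 26 nt held 0.501% in Col-0 and 4.78% in rrp6L1-1. Ends beyond 80 nt made up 29.9% of Col-0 and 10.1% of rrp6L1-1.

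IGN23 had no gained major end, 2 lost ones and 8 kept. The lost ends were 70 nt (6.31% and 1.12%) and 78 nt (5.65% and 0.0247%), but rrp6L1-1 had 3.47% at 77 nt against 0.328% in Col-0. Kept ends differed in both directions: 22, 26, 47 and 74 nt held 5.74%, 1.40%, 1.81% and 2.05% in Col-0 and 12.9%, 5.12%, 6.73% and 7.49% in rrp6L1-1. Those at 6, 41 and 97 nt held 8.95%, 5.78% and 16.8% in Col-0 and 4.78%, 2.76% and 7.30% in rrp6L1-1. The end at 55 nt was similar, at 8.38% and 7.16%. IGN23 held nearly all reads of nrpe1-11, with 248926 ends there and 14 at the other 6 loci together. Of the nrpe1-11 ends at IGN23, 92.1% lay at 40 nt, a position with 0.192% in Col-0 and 0.243% in rrp6L1-1. All 10 major IGN23 positions together held 0.251% of the nrpe1-11 ends.

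IGN29 ended alike in both libraries. All 7 of its major ends were kept, and the largest ratio among them was 1.95, at 24 nt (6.41% in Col-0 and 3.29% in rrp6L1-1). Its leading end, at 14 nt, held 17.2% (exact 95% interval 16.6% to 17.7%) and 16.9% (16.3% to 17.5%). Ends at 3 nt held 7.60% and 12.98%, those at 34 nt 14.9% and 10.2%, and those at 56 nt 6.81% and 5.03%. Those at 9 and 46 nt held 4.37% and 5.92% in Col-0 and 5.09% and 6.62% in rrp6L1-1. Of its 21 positions with at least 1% of the ends, 1 passed the 5-fold limit, 8 nt, with 1.903% and 0.0806%.

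**Figure D2:**
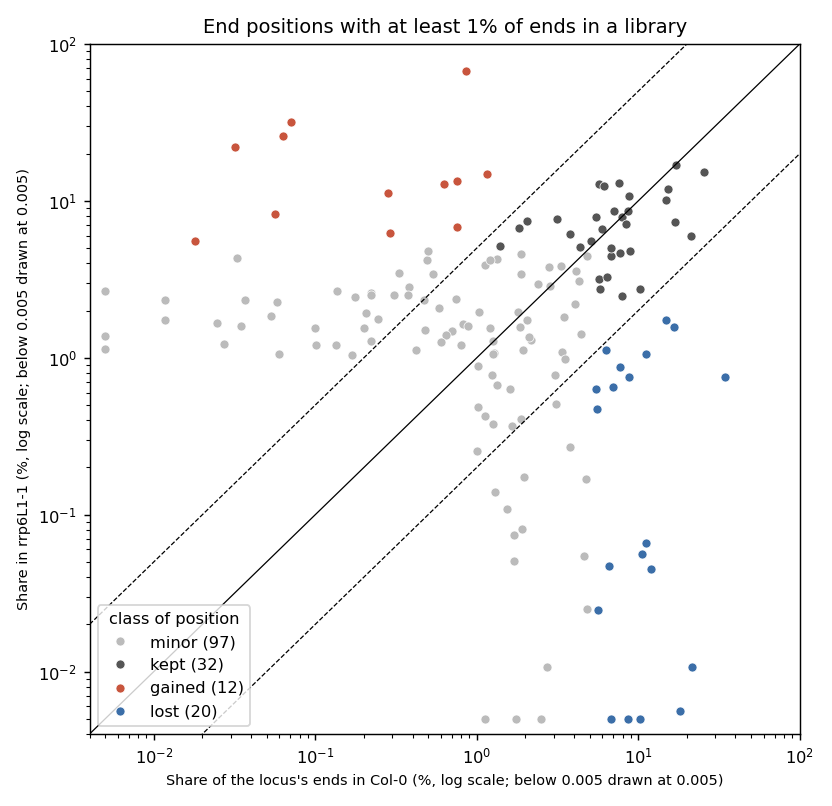
Share of a locus's ends at a position in Col-0 (horizontal axis) and rrp6L1-1 (vertical axis), both in percent on log scales, for the 161 positions with at least 1% in either library. The solid line marks equal shares and the dashed lines 5-fold differences; gained positions (12, red) stand above the upper line and lost ones (20, blue) below the lower line.

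Position by position, the share of ends that the libraries had in common set the loci in order. It was 16.2% at IGN5b, 19.5% at IGN25, 22.3% at IGN17, 53.3% at IGN23, 55.4% at IGN5t, 57.1% at IGN35 and 82.1% at IGN29. Pooling lengths in bins of 5 nt raised it to 20.04%, 21.7%, 25.1%, 65.9%, 64.0%, 62.5% and 85.2%. The first 3 loci thus stayed far below the other 4 in these bins. The bins had fixed edges, which part 30 from 31 nt at IGN17 and 45 from 48 nt at IGN25. Shifts across an edge were therefore not pooled.

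The direction of the difference varied among loci and along the length of a profile. A locus was called displaced when the medians of the libraries lay at least 10 nt apart. IGN25 was displaced downstream, with medians of 50 nt in Col-0 and 74 nt in rrp6L1-1 (24 nt; 24 to 25 nt from the counting intervals of both medians). IGN5t was displaced downstream too, with 17 and 28 nt (11 nt, 11 to 13 nt), and IGN35 upstream, with 43 and 29 nt (-14 nt, -21 to -14 nt). The other medians differed by 8 nt at IGN5b, 1 nt at IGN17, -8 nt at IGN23 and 0 nt at IGN29. These calls depended on the measure: by the mean, IGN5b (14.4 nt), IGN25 (12.2 nt), IGN17 (-20.8 nt) and IGN35 (-14.6 nt) passed 10 nt, and IGN5t (3.62 nt) did not. When the leading end of each profile was left out, the difference was -5 nt at IGN25 and 6 nt at IGN5t. IGN5b (53 nt) and IGN17 (13 nt) were then the displaced loci downstream in their place. At IGN25, IGN5b and IGN17 the end left out was 18, 36 and 102 nt in Col-0 and 98, 44 and 31 nt in rrp6L1-1. At IGN25, removing a short end from Col-0 and a long one from rrp6L1-1 in itself lowers the difference. At IGN17, removing the long 102 nt end from Col-0 in itself raises it. IGN5b also turned to -49 nt without ends before a genomic A, which left 2794 Col-0 and 1308 rrp6L1-1 ends there. IGN23 was at 4 nt without its leading ends (97 nt in Col-0 and 22 nt in rrp6L1-1) and at -13 nt without ends of 1 to 10 nt. Leaving out those leading ends, the long one in Col-0 and the short one in rrp6L1-1, also raises the difference in itself. Which loci count as displaced, and at IGN5b, IGN17, IGN23 and IGN25 the sign too, therefore depended on the summary chosen.

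Deciles showed where along the profile the libraries parted. At IGN25, 8 of 9 deciles were longer in rrp6L1-1, by up to 47 nt at the 60th percentile, but the 90th percentile was 42 nt shorter, at 98 against 140 nt. At IGN17 the first 6 deciles were longer, by 1 to 19 nt, and the last 3 shorter, by 71 to 73 nt. IGN5b had 8 longer deciles whose counting intervals did not overlap between the libraries, with the largest difference, 44 nt, at the 70th percentile. At IGN35 the 6 deciles from the 40th percentile were shorter, by 10 to 33 nt, and the 3 below it differed by at most 1 nt. At IGN23, 6 were shorter, 1 longer and 2 equal, and the 40th percentile differed most, at -21 nt. IGN5t had 6 longer deciles, the largest difference being 14 nt at the 40th percentile. IGN29 stayed within 6 nt at every decile, with 5 of 9 equal.

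**Figure D3:**
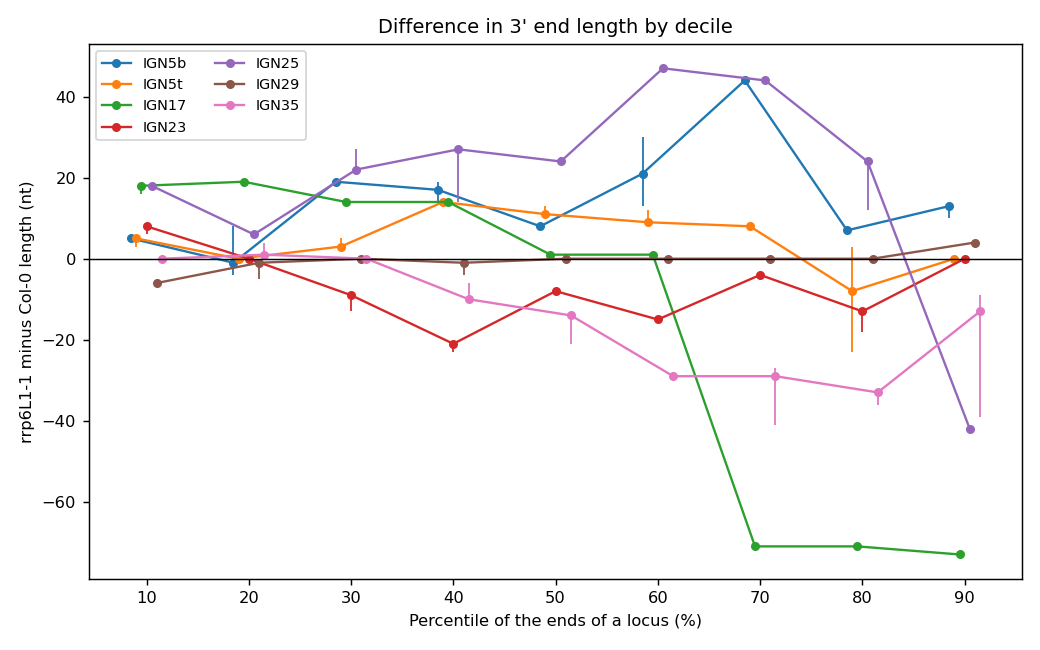
Difference in transcript length, rrp6L1-1 minus Col-0 (vertical axis, nt), at each decile of the ends of a locus (horizontal axis, percent), 1 line per locus. Vertical bars run between the smallest and largest difference that the separate 95% counting intervals of both libraries allow. IGN17 and IGN25 cross from longer to shorter at the upper deciles, and IGN29 stays near 0.

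Concentration on few positions also differed in both directions. The 3 most frequent positions held 84.7% of the IGN17 ends in rrp6L1-1 (exact 95% interval 83.9% to 85.4%) against 59.2% in Col-0 (58.6% to 59.8%). This difference of 25.5 points was 6.55 points with the 5 most frequent positions and 6.72 without ends before a genomic A. At IGN25 they held 56.0% against 37.2%, and at IGN35 31.8% against 25.4%. At IGN23 they held less, 27.7% against 34.2%. Differences at IGN5b (61.1% against 64.4%), IGN5t (37.0% against 41.9%) and IGN29 (40.0% against 39.6%) were under the 5 percentage points required. IGN5t missed that limit narrowly, at -4.93 points, and passed it with the single most frequent position (-10.2), the 5 most frequent (-8.27), bins of 5 nt (-9.71), and without ends of 1 to 10 nt (-7.32) or before a genomic A (-11.2). By the 5 most frequent positions and in bins, IGN5t was the less concentrated locus in place of IGN23. IGN5b reached -5.58 points without ends of 1 to 10 nt, -8.37 with the single most frequent position and -31.1 without ends before A. The effective number of positions, the inverse of the summed squared shares, was 6.395 in Col-0 and 2.14 in rrp6L1-1 at IGN17, 11.3 and 6.66 at IGN25, and 19.5 and 16.4 at IGN35. It was higher in rrp6L1-1 at IGN5t (15.5 against 10.4), IGN23 (18.6 against 15.4), IGN5b (6.65 against 5.46) and IGN29 (13.5 against 12.8). The IGN23 difference reversed in bins of 5 nt (1.96 points higher in rrp6L1-1), and IGN35 turned to -6.22 points without ends before a genomic A. Depth per locus also differed between the libraries. IGN17 and IGN25, the loci with the largest differences in concentration, made up 8.47% and 9.68% of the rrp6L1-1 library against 19.5% and 20.1% of Col-0. Neither the cause of that difference in depth nor its part in the result was tested.

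**Figure D4:**
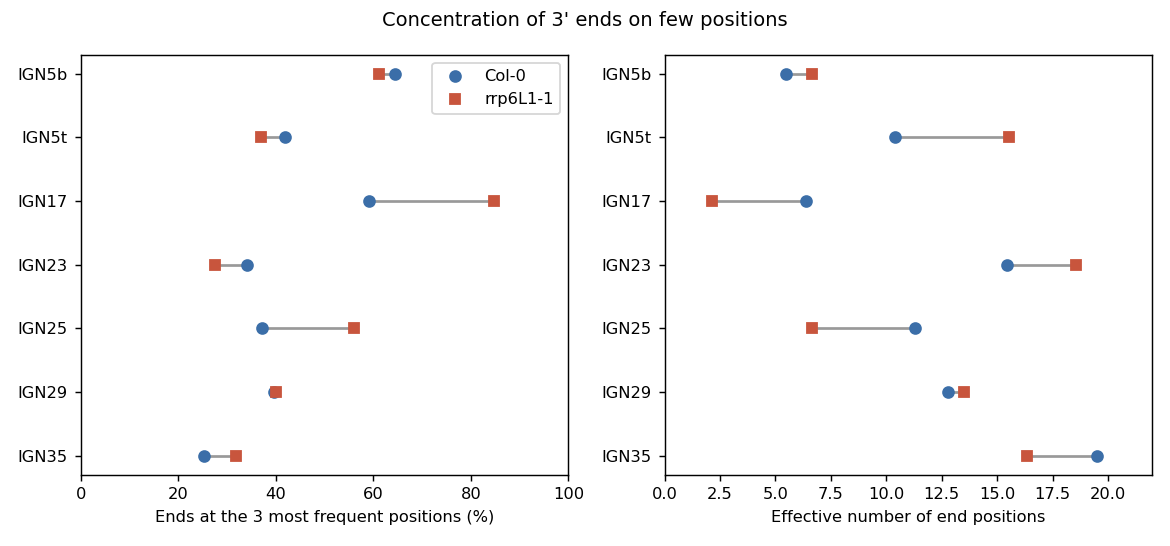
Share of ends at the 3 most frequent positions (left, percent) and effective number of end positions (right) at each locus in Col-0 (blue circles) and rrp6L1-1 (red squares), 1 library each. IGN17 and IGN25 have fewer effective positions in rrp6L1-1, and IGN5t more.

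The genomic base after the end differed between the libraries at IGN17 and IGN25 most. In Col-0, between 59.7% (IGN5t) and 87.3% (IGN5b) of the ends lay directly before a genomic A. If ends were spread evenly over the span holding 99% of the ends and then trimmed back through genomic A, as removal of a poly(A) tail does, this share would be 45.6% (IGN23) to 60.1% (IGN17). An end before A can lie farther downstream than recorded, within the A run. Of the major positions, 17 of 20 lost, 28 of 32 kept and 6 of 12 gained ones lay before an A. The share of ends before A was 86.0% in Col-0 and 38.9% in rrp6L1-1 at IGN25, and 61.9% and 17.7% at IGN17. At IGN17 the leading end was 102 nt in Col-0, before an A, and 31 nt in rrp6L1-1, before a G. With the leading end of each profile left out, the shares were 51.5% and 53.2%. This removed a different position from each library, so it does not give the part of the 31 nt end alone. At IGN25 they were then 83.5% and 57.2%. Smaller differences were measured at IGN35 (79.9% and 70.7%), IGN23 (77.7% and 69.8%) and IGN5t (59.7% and 57.8%), and at IGN29 the shares were 79.3% and 78.9%. IGN5b went the other way, at 87.3% and 92.7%, and all 4 of its gained ends lay before an A.

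**Figure D5:**
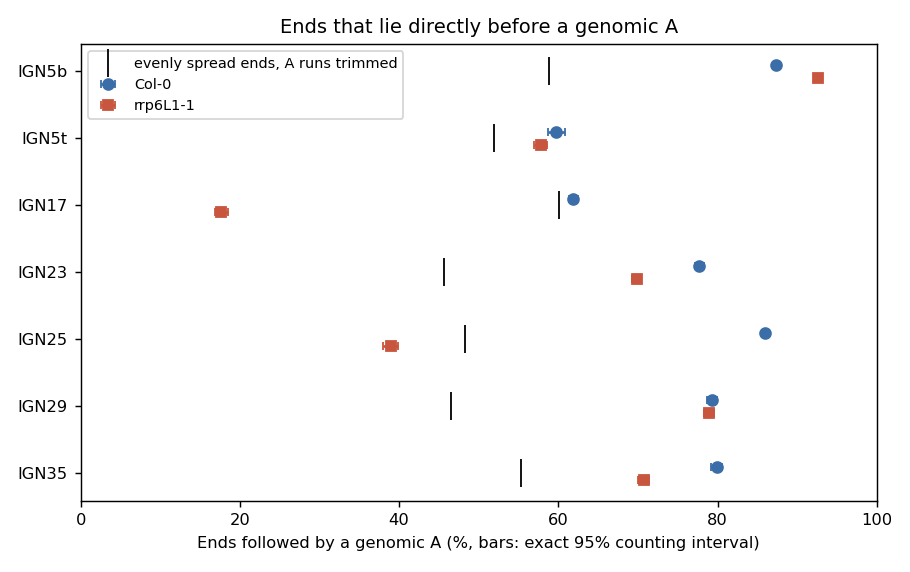
Percent of ends directly followed by a genomic A (horizontal axis) at each locus in Col-0 (blue circles) and rrp6L1-1 (red squares), with exact 95% counting intervals. Black ticks give the share for evenly spread ends trimmed through genomic A; IGN17 and IGN25 in rrp6L1-1 lie to the left of their ticks, and every Col-0 point lies to the right.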

How the data were processed

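The labels describe 1 library per genotype of pooled nested 3′ RACE products. The authors deposited 1 line per read with its locus, strand, 3′ end position and transcript length in nt, per the file headers. TAIR10 was the build, and bedtools, SAMtools, Bowtie2, cutadapt 1.9.1 and bcl2fastq 2.16.0.10 the tools, per the submitters' processing notes, which give no settings here. In each locus the length was a fixed offset from the position on every line; strands are printed as the direction in which length grows, opposite to the deposited strand. Exact repeats were dropped (27611 lines, all at IGN17 in Col-0). Mapping quality was 41 to 44.

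Depth per locus was 8539 to 28398 ends in Col-0 and 9307 to 24308 in rrp6L1-1. No molecular identifiers mark the reads, which are PCR products, so exact (Clopper-Pearson) and order-statistic 95% intervals and the floor of 3 ends cover counting error only. Locus shares are of PCR products, not of RNA. Bases came from TAIR10.1, whose nuclear coordinates were taken as those of TAIR10: in both libraries the base at the end was A for at most 1.29% of ends outside IGN5t, where it was 9.17% and 8.04%.

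All loci and all major positions are named. Members, limits and alternatives were chosen with earlier results of these data known. Median intervals and gained and lost calls were tested on simulated data with counting error alone, not replicate or PCR error. Python 3.11.15, numpy 2.4.6, pandas 2.3.3, scipy 1.17.1 and matplotlib 3.10.9 were used. The second RRP6L1 allele was not used here.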

Additional observations from a re-analysis of the deposited data

How the results depend on the processing

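Of 42 counts recomputed under alternatives, 27 stayed within 1.5 times. Against 2 loci displaced downstream and 1 upstream, the mean gave 2 upstream, each position counted once 1 downstream and 2 upstream, leaving out ends of 1 to 10 nt 2 upstream, leaving out ends before a genomic A 1 downstream and 2 upstream, a limit of 5 nt 2 upstream, and a limit of 20 nt 1 downstream and 0 upstream. The IGN25 median difference of 24 nt reversed to -13 nt with each position counted once and to -5 nt without the most frequent position. A limit of 2% for a major end gave 28 gained, a limit of 10% 10 lost, and leaving out ends before A 19 gained. Loci less concentrated in rrp6L1-1 rose from 1 to 2 by the single most frequent position, to 3 without ends of 1 to 10 nt and to 3 without ends before A. In points, the share of the 3 most frequent positions reversed at IGN23 (1.96 in 5 nt bins and 10.8 without ends before A) and at IGN35 (-6.22 without ends before A). The share of ends before A at IGN17, an alternative chosen after seeing the data, reversed to 1.76 points without the most frequent position. Lines counted as deposited changed none of the counts and could not have changed them. Every Col-0 read at IGN17 stood on 2 lines (55222 lines for 27611 ends), which leaves shares and medians as they were. The unchanged values of this alternative are included in the 27 above and the 30 below. Equal counts can hide different loci: without the most frequent position, 2 loci were again displaced downstream, but IGN5b and IGN17 in place of IGN5t and IGN25. IGN17 and IGN25 were more concentrated in rrp6L1-1 under each of the alternatives run for concentration. Of 91 values of single loci, 30 stayed within the range that the counting intervals of both libraries allow, and 15 had the opposite sign. In 6 of the 15 the reported difference was past its limit (10 nt or 5 points), and these are given above. In the other 9 it was under the limit: the IGN5b (-49 nt), IGN17 (-20.8 and -36 nt) and IGN23 (4 nt) medians, 4 IGN29 concentration values (-0.253 to -4.54 points) and the IGN5t share of ends before A (4.17 points). The causes were not tested. Leaving out a replicate was not possible with 1 library per genotype.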
